A study of Mus musculus with 6 samples.

Results

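In Comma-Dβ, an established line of mouse mammary epithelial cells, 154 genes differed between replicates in the same way in both treatment arms. They were chosen from the measured levels by a rule. Each gene had an average of at least 5 CPM over the 6 libraries, where CPM is the gene's count scaled by the library's total. Its level in replicate 1 and in replicate 3 differed by at least 1.4-fold in the same direction in both arms, and replicate 2 lay between them in both. Of 25655 genes in the table, 10797 reached the mean of 5 CPM. Of these, 112 (1.04%) were higher in replicate 1 than in replicate 3, and 42 (0.389%) were lower, together 1.43%. All differences between replicates below were used by the rule or come from the same libraries, so they are given as a description with no test.

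Cells were transfected with siRNA pools at 20 nM, directed at mouse Id4 in the siID4 arm and non-targeting in the NT arm, with 3 biological replicates of each, and RNA was taken 48 hr after transfection. All libraries came from passage 29 cells grown with 2% serum, insulin and epidermal growth factor. The pools belong to different product lines, siGENOME for siID4 and ON-TARGETplus for NT, so the arms differ in that too. Replicates are numbered 1 to 3 in each arm, and the labels do not say what libraries of the same number share. Replicates of an arm have no order, and "higher in replicate 1" means only that the library of that number held more.

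Id4 itself, the siRNA target and an inhibitor of helix-loop-helix transcription factors, was at 134, 113 and 116 CPM in NT replicates 1, 2 and 3 and at 59.71, 63.31 and 48.52 CPM in siID4. The change on the log2 scale was −1.11 (SE 0.10, edgeR adjusted p = 8.65e-04, and 0.0113 with the replicate number as a block). The libraries held 19.2 to 23.1 M counts, so 5 CPM stands for 96.1 to 115 counts. Mitochondrially encoded genes took 3.52 to 4.08% of counts. That share leaves out counts given to near-identical copies, such as the pseudogene Gm28661 at 6023 to 7003 CPM. The epithelial label was matched by its defining markers: Krt5 was at 691 to 900 CPM, Krt14 at 787 to 1005, Krt18 at 99.12 to 154 and Epcam at 180 to 228. The leukocyte gene Ptprc, the endothelial gene Cdh5 and the fat cell gene Adipoq were at most at 0.0922 CPM in any library. Other markers were higher, such as Csf1r of leukocytes at 0.59 to 1.34 CPM and Pecam1 of endothelium at 0.17 to 0.53. Summed marker lists were at 16.7 to 24.9 CPM for leukocytes, 2.86 to 5.47 for endothelium and 19.7 to 28.1 for fat cells. Fibroblast markers, which include collagen genes, summed to 3544 to 5693 CPM.

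Several of the programmes that these genes belong to are well known in mammary epithelium. Cells of this tissue deposit collagens, fibrillin and small proteoglycans, and secrete proteins that bind growth factors or block proteases. Interferons act through STAT and IRF transcription factors on genes of antiviral defence. Heat shock factor induces cytosolic chaperones when proteins misfold, and AP-1 factors such as JUNB and FOSL1 answer growth factors and stress. In the gland, ELF5 and STAT5A drive the milk-producing luminal programme.

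Among the genes higher in replicate 1, the median fold of replicate 1 over replicate 3 was 1.613 in NT and 1.563 in siID4, with a maximum of 2.99 and 2.93. At least 2-fold in both arms was reached by 7 genes. Among the genes lower in replicate 1, the median fold of replicate 3 over replicate 1 was 1.615 in NT and 1.535 in siID4, and 3 genes reached 2-fold in both. The fold was larger in NT for 66 of the 112 and for 24 of the 42. Taken in 1 arm alone, the same conditions were met by 289 genes higher and 134 lower in NT, and by 188 higher and 133 lower in siID4. Only 1 gene met them in opposite directions in the arms.

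**Figure D1:**
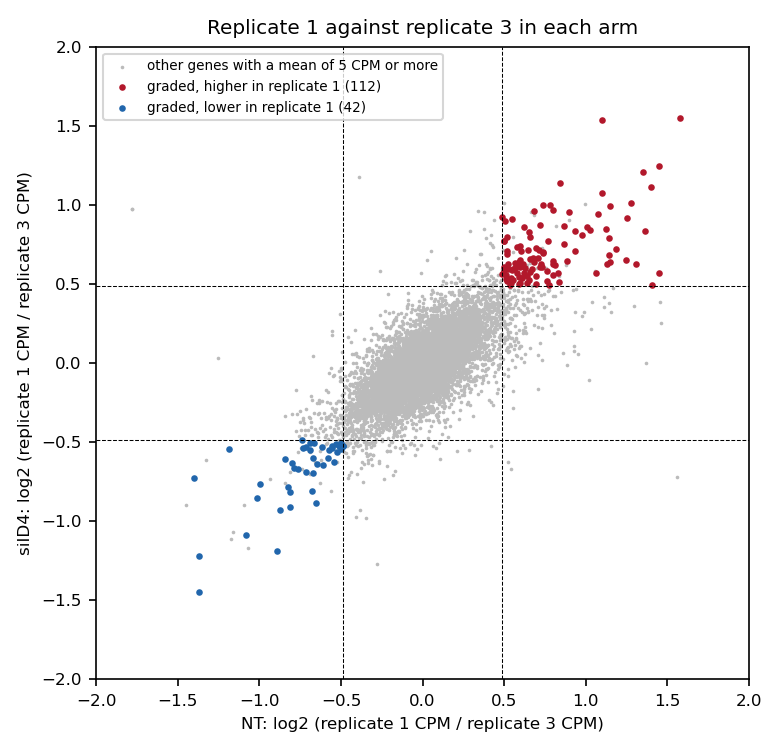
Log2 ratio of replicate 1 to replicate 3 CPM in NT (horizontal axis) and in siID4 (vertical axis) for genes that reached a mean of 5 CPM, 1 point per gene, with 6 genes beyond the axes. The 112 genes higher in replicate 1 (red) lie beyond the dashed 1.4-fold lines at the upper right and the 42 lower ones (blue) at the lower left, while gray points beyond both lines in these corners failed the condition on replicate 2.

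The plot of ratios by arm shows that the chosen genes form the 2 ends of a cloud that is stretched along the diagonal. The limit falls inside a continuous spread. Just inside it on the higher side were Nfatc4, Sema6a and Nrep, with a smaller fold of the arms of 1.402, 1.403 and 1.408, and just outside were Qpct, Fam84a and Hbp1 with 1.399, 1.394 and 1.389. On the lower side Fosl1, Pxdc1 and Rnaseh2c were just inside with 1.401, 1.401 and 1.404, and Nrarp, B3galnt2 and Ddit4 just outside with 1.397, 1.388 and 1.386. The same tendency reached beyond the chosen genes. Across all genes tested, deviations from the arm mean correlated at 0.42, 0.14 and 0.38 between the libraries numbered 1, 2 and 3 of the arms, and at 0.40, 0.14 and 0.35 without the 154 genes. Libraries of different numbers gave at most −0.03 and −0.02. These correlations run over genes, which are not independent replicates, and the deviations of an arm sum to 0 by construction.

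**Figure D2:**
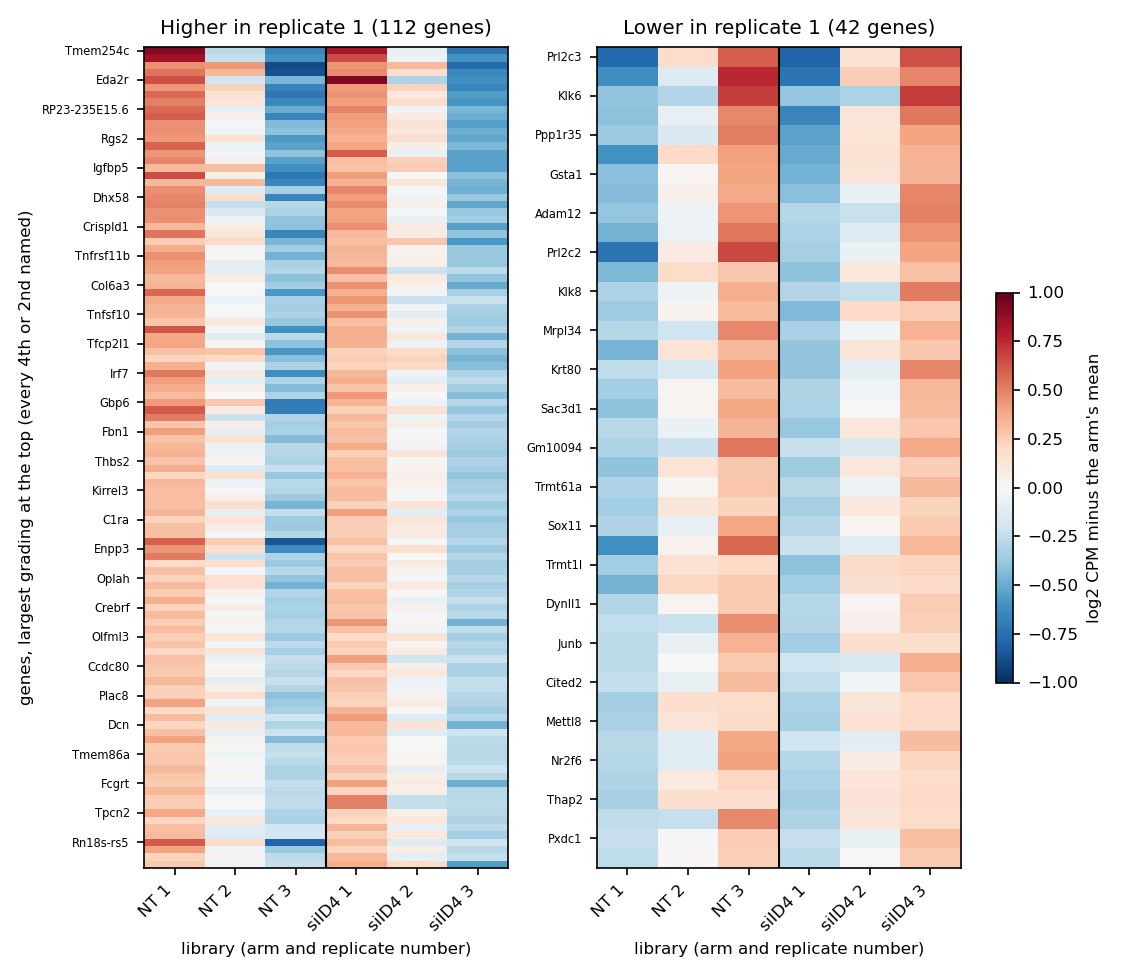
Log2 CPM minus the arm's mean in each of the 6 libraries (columns) for the 112 genes higher in replicate 1 (left) and the 42 lower ones (right), 1 row per gene, with the largest smaller-of-the-arms ratio at the top. Red is above and blue below the arm's mean, and replicate 2 is pale in most rows because the rule placed it between the others.

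The map of members by library shows rows of even colour along most of the 112 genes, with a few of strong contrast at the top. Replicate 2 did not sit at the same place in the groups. On the log2 scale, it lay at a median of 0.496 (NT) and 0.417 (siID4) of the way from replicate 1 to replicate 3 among the higher genes, and at 0.540 and 0.648 among the lower genes. Summed over the 112 genes, the level was 5793, 4592 and 3557 CPM in NT and 7543, 6243 and 4749 CPM in siID4, in replicate order 1, 2 and 3 as in all values that follow. Summed over the 42 lower genes, it was 3176, 4322 and 4899 CPM in NT and 3052, 4107 and 4583 CPM in siID4.

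The genes higher in replicate 1 were sorted into roles after their values were seen. The largest classes were extracellular matrix and metabolic or modifying enzymes with 13 genes each, keratin, milk protein and transcription factors with 11, and 9 each for interferon-inducible genes, secreted enzymes and binding proteins, cytokines and receptors, channels and signalling, and cell surface proteins. Complement and acute phase proteins numbered 5, structural and noncoding RNAs 5 and stress regulators 4, and 16 were not assigned.

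Krt15, a keratin of basal epithelial cells (chromosome 11 from 100131758 to 100135928 on the minus strand of GRCm38), had the largest smaller-of-the-arms fold of any higher gene with no near-identical copy. Its level was 10.75, 5.10 and 3.94 CPM in NT and 17.39, 10.64 and 7.32 CPM in siID4. Replicate 1 stood well above replicates 2 and 3 in both arms, 2.729-fold in NT and 2.375-fold in siID4 over replicate 3. Csn3, which encodes κ-casein of milk, was at 55.29, 54.74 and 29.92 CPM in NT and 65.17, 63.50 and 41.64 CPM in siID4. There replicates 1 and 2 were close, and replicate 3 was the low library.

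The luminal transcription factors Ehf and Elf5, both of the ETS family, were graded too. Ehf was at 234, 164 and 129 CPM in NT and 211, 151 and 125 CPM in siID4, and Elf5 at 17.04, 13.48 and 10.95 CPM in NT and 13.83, 10.64 and 9.75 CPM in siID4. In both genes the arms overlapped, and replicate 1 of siID4 was above replicate 2 of NT, but siID4 was the lower arm for every number. For Ehf and Elf5, edgeR's adjusted p was 0.812 and 0.349 without the replicate number as a block, and 6.35e-04 and 0.00333 with it. Stat5a, the transcription factor that carries the prolactin signal, was at 37.51, 32.30 and 24.45 CPM in NT and 42.03, 36.37 and 27.24 CPM in siID4, with replicate 1 at 1.534-fold in NT and 1.543-fold in siID4 over replicate 3. The aryl hydrocarbon receptor gene Ahr, the grainyhead-like genes Tfcp2l1 and Grhl1, and Eya1, Zhx1 and Nfatc4 completed this class, whose folds ran from 1.402 to 2.729 over both arms.

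Matrix genes drew the largest counts of the higher group. Col3a1, the chain of type III collagen (chromosome 1 from 45311538 to 45349706 on the plus strand), was at 962, 734 and 587 CPM in NT and 1425, 1162 and 866 CPM in siID4. Replicate 1 exceeded replicate 3 1.639-fold in NT and 1.645-fold in siID4, and siID4 replicate 1 was the highest of the 6 libraries. Of type VI collagen, Col6a1 was at 800.0, 660.1 and 549.6 CPM in NT and 1232, 1065 and 866 CPM in siID4, and Col6a3 at 75.86, 60.05 and 47.20 CPM in NT and 154, 116 and 79.04 CPM in siID4. The remaining chain on the list, Col6a2, had 478, 373 and 339 CPM in NT and 783, 685 and 567 CPM in siID4 and fell outside the rule with a fold of 1.408 in NT and 1.382 in siID4. Fbn1, fibrillin of the microfibrils, was at 367, 256 and 221 CPM in NT and 462, 366 and 303 CPM in siID4. Thbs2, a secreted thrombospondin, was at 331, 277 and 218 CPM in NT and 392, 320.2 and 256 CPM in siID4. In both, replicate 1 was the highest and replicate 3 the lowest library of each arm.

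The small proteoglycans shared the pattern over replicates but lay on opposite sides between the arms. Dcn (decorin) was at 71.10, 65.10 and 49.66 CPM in NT and 60.53, 53.50 and 34.80 CPM in siID4, lower in siID4 for each number. Bgn (biglycan) was at 8.08, 6.82 and 4.85 CPM in NT and 15.48, 13.46 and 9.57 CPM in siID4, and no NT library reached the siID4 levels. Mgp, which encodes matrix Gla protein, an inhibitor of calcification, had the largest matrix fold in NT with 63.87, 47.67 and 26.33 CPM in NT and 79.52, 62.58 and 39.39 CPM in siID4. Col9a1, Col24a1, Sned1, Olfml3 and Ccdc80 made up the rest of the 13. The main collagen of the interstitium was not among them: Col1a1 was at 1183, 1087 and 1203 CPM in NT and 1794, 1849 and 1860.2 CPM in siID4, and Col1a2 at 1124, 1054 and 1009 CPM in NT and 1462, 1479 and 1358 CPM in siID4. Of both, the libraries of an arm lay close together.

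Secreted enzymes, inhibitors and binding proteins reached folds of up to 2.389. Igfbp5, which binds insulin-like growth factors, was at 284, 278 and 149 CPM in NT and 443, 431 and 248 CPM in siID4. Replicates 1 and 2 were close within an arm, and replicate 3 held far less. Enpp2 (autotaxin, which makes lysophosphatidic acid) was at 44.89, 34.71 and 20.26 CPM in NT and 75.84, 64.88 and 38.02 CPM in siID4, and Pi15, a secreted protein named as a protease inhibitor, at 136, 93.10 and 57.02 CPM in NT and 159, 126 and 84.20 CPM in siID4. Odam, a secreted protein first known from tooth enamel epithelium, was at 13.28, 11.55 and 6.19 CPM in NT and 25.15, 22.07 and 11.91 CPM in siID4. Its replicates 1 and 2 were again close in each arm. The proteases Mmp19 and Pcsk5, with Crispld1, C1qtnf1 and Cemip, belonged here with smaller folds.

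**Figure D3:**
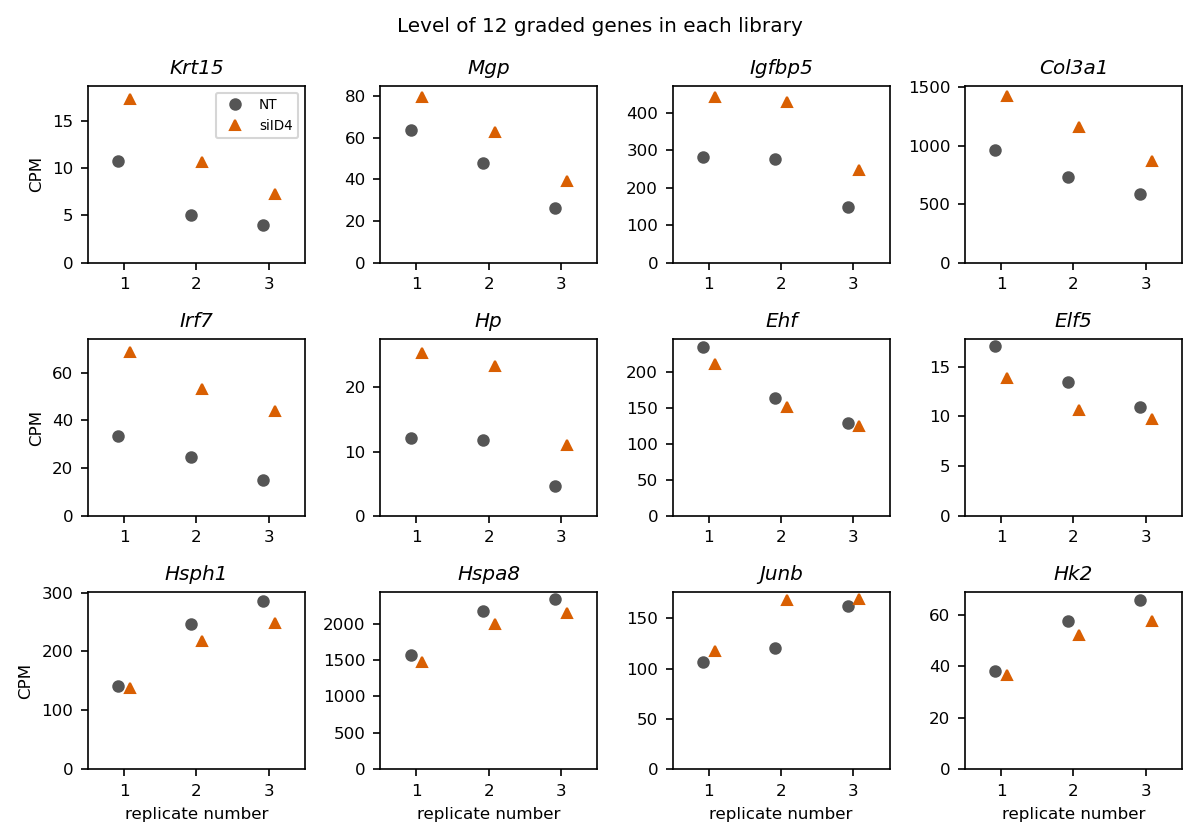
CPM (vertical axes, each from 0) of 12 graded genes in NT (gray circles) and siID4 (orange triangles) by replicate number, 1 point per library. The upper 8 genes are higher in replicate 1 and the bottom row is lower in replicate 1. For Krt15, Col3a1 and Irf7 the siID4 point lies above the NT point of each number. For Ehf and Hsph1 the arms are close, with siID4 the lower for each number.

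The plot of single genes by library shows these shapes side by side. Hp, Igfbp5 and, in the lower row, Hspa8 have replicates 1 or 3 apart from the other libraries, whereas Ehf and Mgp have their replicates 2 near the middle. Genes of complement and the acute phase were 5 of the 112. Hp, haptoglobin that binds free haemoglobin, was at 12.04, 11.81 and 4.72 CPM in NT and 25.41, 23.36 and 10.98 CPM in siID4. The complement proteases C1ra and C1s1 had folds of 1.497 and 1.546 and of 1.606 and 1.560 in NT and siID4, and Lbp, which binds bacterial lipopolysaccharide, of 1.697 and 1.499.

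Cytokines and their receptors formed a class without a common arm difference. Il1r1, the receptor of interleukin 1, was at 36.07, 21.75 and 20.26 CPM in NT and 33.86, 27.88 and 22.80 CPM in siID4. Il1rl1, the receptor of interleukin 33, was at 63.87, 42.25 and 37.45 CPM in NT and 47.09, 35.34 and 27.57 CPM in siID4, and its ligand Il33 at 7.09, 5.00 and 4.50 CPM in NT and 6.42, 5.44 and 3.62 CPM in siID4. Ligand and receptor were thus both highest in replicate 1 of each arm. Tnfrsf11b, the decoy receptor osteoprotegerin, was at 50.64, 37.21 and 26.46 CPM in NT and 70.24, 57.46 and 43.05 CPM in siID4. Tnfsf10 encodes the death ligand TRAIL, which osteoprotegerin also binds, and was at 17.84, 13.89 and 11.30 CPM in NT and 20.29, 13.78 and 11.69 CPM in siID4. The receptors Eda2r, Gfra1, Il17rd and Tgfbr3 belonged to this class too. Eda2r, the ectodysplasin A2 receptor and a target of p53, was at 7.43, 4.16 and 3.46 CPM in NT and 8.85, 3.78 and 3.04 CPM in siID4, with replicate 1 far above replicate 2 in siID4.

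Interferon-inducible genes had the largest median grading of the classes with at least 4 higher genes in NT, a log2 ratio of 1.15, against 0.64 in siID4. Irf7, the factor that amplifies the interferon response, was at 33.35, 24.77 and 15.02 CPM in NT and 68.60, 53.13 and 44.06 CPM in siID4. The RNA sensors Dhx58 and Ddx60 were at 17.54, 14.21 and 7.92 CPM in NT and 27.53, 20.00 and 15.92 CPM in siID4, and at 20.17, 13.58 and 9.14 CPM in NT and 40.85, 31.10 and 25.45 CPM in siID4, respectively. The antiviral gene Ifit3 was at 9.73, 6.43 and 3.78 CPM in NT and 21.14, 15.84 and 11.83 CPM in siID4. In Irf7, Ddx60 and Ifit3 every siID4 library was above every NT library, with edgeR adjusted p of 0.0543, 0.0536 and 0.0574, and of 7.96e-06, 8.51e-13 and 2.72e-12 with the replicate number as a block. Oasl1 was at 34.53, 24.20 and 21.35 CPM in NT and 32.87, 20.60 and 19.85 CPM in siID4, and Rsad2 (viperin, which makes a chain-terminating nucleotide) at 7.58, 5.98 and 2.77 CPM in NT and 7.54, 6.13 and 5.07 CPM in siID4. For these genes the arms overlapped. Trafd1, Gbp6 and I830012O16Rik (Ifit3b) completed the class.

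Regulators of stress and starvation numbered 4. Trp53inp1, a p53 target that promotes autophagy and cell death, was at 25.37, 16.29 and 11.65 CPM in NT and 37.90, 30.04 and 21.08 CPM in siID4. Klhl24, an adaptor of a ubiquitin ligase, was at 39.59, 32.94 and 24.85 CPM in NT and 56.02, 44.61 and 37.14 CPM in siID4, and Bmf, a cell death activator of the BCL2 family, at 8.08, 7.34 and 4.89 CPM in NT and 15.91, 13.27 and 10.45 CPM in siID4. Crebrf, a regulator of stress signalling, had folds of 1.462 and 1.505. In Bmf and Trp53inp1 siID4 was the higher arm for every number.

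Of the enzymes, Cyp2f2, a cytochrome P450, was at 13.48, 11.76 and 5.11 CPM in NT and 13.57, 10.97 and 6.26 CPM in siID4, with a log2 fold change between the arms of 0.00 (SE 0.40). Tet2, which oxidises methylated cytosine, was at 52.92, 42.98 and 35.68 CPM in NT and 57.19, 47.60 and 36.92 CPM in siID4, and Mgea5, which removes O-linked N-acetylglucosamine from proteins, at 201, 149 and 140.3 CPM in NT and 158, 107 and 96.42 CPM in siID4. Cyp26b1, which degrades retinoic acid, was at 16.40, 15.66 and 11.43 CPM in NT and 28.92, 22.95 and 17.91 CPM in siID4. The folds of the 13 enzymes ran from 1.430 to 2.638. Channels, transporters and signalling genes had folds from 1.414 to 2.009: Rgs2, which limits G protein signalling, was at 7.48, 6.14 and 3.72 CPM in NT and 6.33, 5.62 and 3.48 CPM in siID4, and the chloride channel gene Ano1 at 32.90, 24.93 and 21.87 CPM in NT and 43.19, 38.52 and 30.48 CPM in siID4. Cell surface genes had folds from 1.403 to 2.202 and were led by Pvrl4 (nectin 4, a cell junction protein) with 17.19, 12.39 and 9.57 CPM in NT and 14.57, 9.12 and 6.62 CPM in siID4.

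Structural and noncoding RNAs were 5 of the 112. Rn7s1 and Rn7s2, copies of the 7S RNA, had the same values in every library, 21.95, 18.47 and 15.50 CPM in NT and 15.80, 9.47 and 9.26 CPM in siID4, and are 1 measurement. Rn18s-rs5, annotated as ribosomal RNA, was at 12.05, 8.97 and 4.55 CPM in NT and 7.59, 5.58 and 5.38 CPM in siID4. As the counts were divided, these RNAs were the highest in replicate 1 in both arms although the libraries were made by poly(A) selection. For Rn18s-rs5 this is uncertain, since it held 0.217% of the counts summed with its copy Yam1. That sum was at 3871, 4459 and 3854 CPM in NT and 3105, 2551 and 2450 CPM in siID4, so replicate 2 was the highest in NT. Mir22hg, the host transcript of a microRNA, had folds of 1.596 and 1.587 in NT and siID4, and the last of the 5 is annotated as lying in an intron.

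The genes lower in replicate 1 were fewer. Keratins, transcription factors and metabolic enzymes stood on both sides, and no test compared the roles of the groups. Post hoc classes held 5 genes each for RNA modification, tRNA and mitochondrial translation and for chromatin, DNA and centrosome, 4 each for hormones and growth factors and for AP-1 and early response, and 3 each for heat shock, proteases, metabolic enzymes and transcription factors. Another 2 were keratins, 1 was mitochondrially encoded and 9 were not assigned.

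Heat shock genes drew the largest counts of the lower group. Hsph1, a nucleotide exchange factor of the HSP70 chaperones (chromosome 5 from 149614287 to 149636376 on the minus strand), was at 142, 246 and 286 CPM in NT and 137, 218 and 249 CPM in siID4. Replicate 1 was the low library of each arm, and replicate 3 exceeded it 2.017-fold in NT and 1.812-fold in siID4. Hspa8, the constitutive HSP70, was at 1575, 2181 and 2346 CPM in NT and 1472, 1995 and 2154 CPM in siID4, with replicate 3 above replicate 1 by 1.489-fold in NT and 1.464-fold in siID4. The arms overlapped in both genes, but siID4 was the lower arm for every number, and edgeR's adjusted p was 0.786 for Hsph1 and 0.677 for Hspa8 without and 4.40e-05 and 4.67e-05 with the replicate number as a block. Gm15459, a processed pseudogene whose transcript is 99.7% identical to that of Hspa8 over 1941 bases, was at 512, 731 and 739 CPM in NT and 482, 651 and 688 CPM in siID4, and its counts cannot be told from those of Hspa8 with certainty.

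Of the AP-1 and early response genes, Junb was at 106, 121 and 163 CPM in NT and 117, 168 and 169.5 CPM in siID4. Replicate 2 lay near replicate 1 in NT and near replicate 3 in siID4. Fosl1 was at 41.17, 49.44 and 57.67 CPM in NT and 29.27, 34.98 and 42.17 CPM in siID4, and Atf3, a stress-induced factor of the same dimer family, at 4.66, 5.57 and 6.71 CPM in NT and 5.64, 5.81 and 8.34 CPM in siID4. Cited2, a coactivator-binding factor, had folds of 1.467 and 1.439. The folds of this class ran from 1.401 to 1.532, a range that overlapped that of the hormone and growth factor genes (1.461 to 2.730).

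Hormones and growth factors led the lower group. Prl2c3, a proliferin of the prolactin family (chromosome 13 from 12790816 to 12800079 on the minus strand), was at 10.12, 19.64 and 26.21 CPM in NT and 6.81, 13.18 and 18.60 CPM in siID4. Replicate 3 was above replicate 1 by 2.590-fold in NT and 2.730-fold in siID4, the largest fold among lower genes in siID4. Its near-identical neighbour Prl2c2 was at 5.48, 9.70 and 14.49 CPM in NT and 4.02, 4.83 and 6.67 CPM in siID4, and the 2 share reads. Pthlh, parathyroid hormone-related protein, was at 6.24, 8.74 and 10.95 CPM in NT and 4.60, 5.85 and 8.65 CPM in siID4, and Pdgfb, a growth factor of mesenchymal cells, at 4.31, 6.82 and 9.83 CPM in NT and 8.46, 8.99 and 12.35 CPM in siID4. Pthlh was lower in siID4 for each number and Pdgfb higher.

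Among the proteases, the kallikrein Klk6 was at 7.23, 7.75 and 15.33 CPM in NT and 5.55, 5.85 and 11.82 CPM in siID4, and its relative Klk8 had folds of 1.597 and 1.750 in NT and siID4. For Klk6, replicates 1 and 2 were close in each arm, and replicate 3 stood above them. Adam12, a membrane-anchored metalloprotease, was at 30.47, 38.35 and 53.95 CPM in NT and 49.39, 51.66 and 85.17 CPM in siID4. The luminal keratin Krt7 was at 196, 222 and 311 CPM in NT and 159, 169 and 225 CPM in siID4, and Krt80, of stratified epithelium, at 7.98, 8.53 and 12.56 CPM in NT and 5.12, 6.31 and 9.44 CPM in siID4. In both keratins replicate 3 was the highest library of each arm, the reverse of Krt15.

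Hk2, the hexokinase that starts glycolysis, was at 38.05, 57.71 and 65.86 CPM in NT and 36.47, 52.07 and 57.69 CPM in siID4, and Gsta1, a glutathione transferase, at 6.38, 8.64 and 11.22 CPM in NT and 3.09, 4.69 and 5.44 CPM in siID4. Both enzymes were lowest in replicate 1 of each arm. Genes of RNA modification and mitochondrial translation had folds from 1.416 to 1.700. Among them Trmt61a and Trmt1l act on transfer RNA, Mettl8 is an RNA methyltransferase, Nars2 charges mitochondrial tRNA with asparagine and Mrpl34 is a mitochondrial ribosomal protein, at 11.74, 12.49 and 19.96 CPM in NT and 12.96, 15.90 and 20.64 CPM in siID4. In the chromatin, DNA and centrosome class, Ppp1r35, of the centriole, was at 4.61, 5.36 and 8.44 CPM in NT and 5.33, 8.48 and 10.14 CPM in siID4, and Rnaseh2c, a subunit of ribonuclease H2, had folds of 1.670 and 1.404. Rgs4, a regulator of G protein signalling as Rgs2 is, was at 5.15, 6.87 and 10.30 CPM in NT and 5.25, 5.99 and 8.91 CPM in siID4, the reverse of Rgs2. Celf4, an RNA-binding protein, was at 15.90, 20.82 and 25.37 CPM in NT and 12.36, 19.17 and 19.98 CPM in siID4. The transcription factor Sox11 was at 12.83, 14.99 and 20.70 CPM in NT and 18.82, 23.36 and 27.52 CPM in siID4.

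Whole lists of pathway genes were then read beside the chosen members. The 41 lists held 24 of the higher and 11 of the lower genes, and 17 lists held any. Of 24 interstitial matrix genes with a mean of 5 CPM, 7 (29.2%) were members, against 1.04% of all such genes. They were Bgn, Col3a1, Col6a1, Col6a3, Dcn, Fbn1 and Thbs2. The list's median log2 ratio of replicate 1 to 3 was 0.29 in NT and 0.32 in siID4, and 19 of 24 genes were higher in replicate 1 in both arms. Over all genes with a mean of 5 CPM the medians were −0.01 and −0.01, with 36.4% higher in replicate 1 in both arms and 40.7% lower in both. None of 16 basement membrane genes was a member.

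The interferon list behaved otherwise in the arms. Of 44 genes, 6 (13.6%) were members, Ddx60, Dhx58, Ifit3, Irf7, Oasl1 and Rsad2. The list names Ifit3b, which did not match the symbol I830012O16Rik, so that member is left out of the counts of this list. In NT, 34 of the 44 (77.3%) were at least 1.4-fold higher in replicate 1 than in replicate 3, against 3.01% of all genes. In siID4 it was 6 of 44 (13.6%), against 1.98%. The median log2 ratios were 0.67 and 0.19. Isg15, a ubiquitin-like protein, shows the pattern of the genes left out: it was at 64.96, 46.11 and 29.18 CPM in NT and 107, 95.20 and 85.97 CPM in siID4, a fold of 2.226 in NT and 1.250 in siID4. Each arm has 1 library of each number, so the difference between the arms could not be tested. Of 15 antigen presentation genes, 14 were higher in replicate 1 in both arms and none was a member.

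Of 13 cytosolic heat shock genes, 2 (15.4%) were members, Hspa8 and Hsph1, against 0.389% of all genes. All 13 were lower in replicate 1 than in replicate 3 in both arms, with median log2 ratios of −0.32 and −0.23. Hspa1b, the stress-inducible HSP70, was at 100.3, 97.55 and 192 CPM in NT and 86.83, 120.2 and 144 CPM in siID4, and was no member because replicate 2 was the lowest NT library. Of 29 immediate early genes, 3 (10.3%) were members, Atf3, Fosl1 and Junb, and the list's medians of −0.03 and −0.03 were near those of all genes. Among chaperones of the endoplasmic reticulum, 13 of 15 were lower in replicate 1 in both arms, and none was a member.

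**Figure D4:**
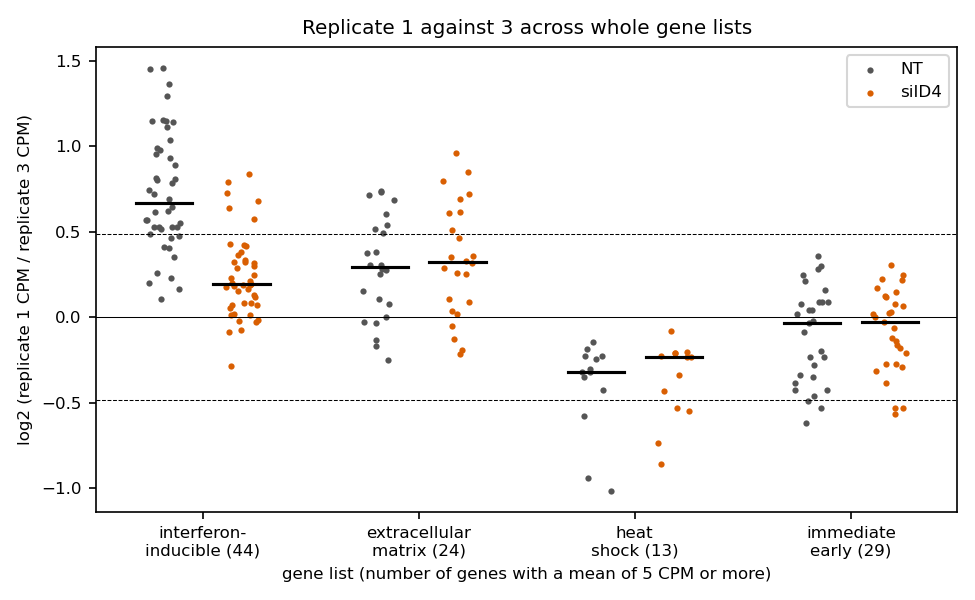
Log2 ratio of replicate 1 to replicate 3 CPM (vertical axis) for every gene that reached a mean of 5 CPM in 4 lists, in NT (gray) and siID4 (orange), with a bar at each median and dashed lines at 1.4-fold. Interferon-inducible genes have medians of 0.67 and 0.19, matrix genes 0.29 and 0.32, heat shock genes −0.32 and −0.23, and immediate early genes lie around 0.

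The plot of whole lists shows that the interferon points fall toward 0 in siID4, while the matrix points keep their place. Lists of epithelial identity were split. For the counts that follow, the share among all genes with a mean of 5 CPM was 1.04% higher and 0.389% lower. The lists are short, and their counts rest on few genes. Of 17 basal genes, Igfbp5 and Krt15 were members. Of 16 luminal genes, Ehf and Elf5 were higher and Krt7 lower in replicate 1. Of 17 p53 targets, Eda2r and Trp53inp1 were members, and the nutrient list of 14 held 1 of each direction, Klhl24 and Cited2. All 5 milk genes with a mean of 5 CPM were higher in replicate 1 in both arms, and Csn3 met the rule. Single members came from the lists of matrix proteases (Mmp19), TGF-β (Tgfbr3), inflammation (Il33), glycolysis and hypoxia (Hk2), NRF2 (Gsta1), squamous epithelium (Krt80) and the mitochondrial genome (mt-Co2).

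Many pathways held no member. Only 1.43% of all genes with a mean of 5 CPM were members, so an empty list of this length is no result about its pathway. The same holds for the basement membrane, antigen presentation and endoplasmic reticulum lists above. The pathways without a member were cholesterol synthesis (25 genes), fatty acids (21), the amino acid response (27), YAP targets (12), the circadian clock (15), glucocorticoid response (6), metals (9), lysosome (17), contractile apparatus (12), BMP and ID genes (9), Wnt (12) and Notch (10). Nor did mitosis (22) or DNA replication (22), although 17 and 19 of their genes were lower in replicate 1 in both arms, nor 82 ribosomal proteins, 75 nuclear respiratory chain subunits, 12 noncoding host RNAs and 4 histones. At the limit of 1.4-fold, small shifts of many genes leave no trace in a count of members.

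Of the 13 fibroblast markers, 5 are also on the matrix list, so the lists are not independent. The summed level of the 13 markers was 4190, 3732 and 3544 CPM in NT and 5693, 5501 and 4971 CPM in siID4. It was highest in replicate 1 and lowest in replicate 3 of each arm. Shared collagen genes carried most of it: Col1a1, Col1a2 and Col3a1 were at 1183, 1124 and 962 CPM in NT replicate 1. Col3a1 was itself chosen for its grading, so the order of the sum is no separate observation. Of 8 with a mean of 5 CPM, 7 were higher in replicate 1 in both arms, and Col3a1 and Dcn were members. Pdgfra, a defining receptor of fibroblasts, was at 64.11, 57.14 and 45.03 CPM in NT and 40.98, 36.77 and 32.15 CPM in siID4. Their part in the grading of matrix genes was not tested. In bulk RNA, fewer cells of a type and less RNA per cell cannot be told apart. The summed basal markers were at 5388 to 5993 CPM in NT and 5243 to 5540 in siID4. Leukocyte markers summed to 24.9, 24.2 and 17.1 CPM in NT and 23.1, 23.5 and 16.7 CPM in siID4, lowest in replicate 3 of each arm. Only 1 of them reached a mean of 5 CPM. Its log2 ratio of replicate 1 to 3 was 0.64 in NT and 0.62 in siID4, but it was no member. Ptprc was at or near 0.

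Some members have near-identical copies, between which the estimated counts were divided. A transcript at least 95% identical over at least 50% of the member's longest transcript, from a gene in the table, existed for 17 members. Summed with their copies, 12 still met the rule and 5 did not: Tmem254c, Rn18s-rs5, Gm10094, Gm7332 and mt-Co2. Tmem254c had the largest folds of all with 10.30, 4.53 and 3.45 CPM in NT and 8.23, 4.46 and 2.81 CPM in siID4, but its copies Tmem254a and Tmem254b ran the other way, and the sum was at 18.4, 17.1 and 15.2 CPM in NT. mt-Co2, a subunit of cytochrome oxidase, held 1.03% of the summed counts of its copies, and nearly all were given to the pseudogene Gm28661. Gm10094 and Gm7332 held 7.32% and 4.50% of the sums with Sap18 and Ppp1r14b. These 5 are therefore uncertain as members. Of the others, Ifit3 and I830012O16Rik shared 97.8% identity, and Fosl1 shares 1056 bases of transcript with its neighbour Ccdc85b.

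The groups differed in length and level. The median gene length given in the table was 3147 bases for the higher genes and 1699 for the lower genes, against 2562 for all genes with a mean of 5 CPM. The median span in the genome was 26686, 8752 and 24946 bases. The median level was 18.8 CPM for higher and 15.9 for lower genes, against 41.6, and 24.1% and 31.0% had a mean under 10 CPM, against 10.5%. The part of counting noise at these levels in the grading was not tested. Protein-coding genes made up 107 of 112 (95.5%) and 39 of 42 (92.9%), against 97.2% of all genes with a mean of 5 CPM.

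The study asks how loss of ID4 changes these cells. The rule did not use the difference between the arms, but its minimum of 5 CPM ran over both. A gene low in 1 arm could thus pass through the other. Gsta1, with a mean under 5 CPM in siID4, passed through NT, and C1s1, under 5 CPM in NT, through siID4. edgeR's quasi-likelihood test called 6 of the 112 higher genes up in siID4 and 2 down. The background was 4.88% up and 6.08% down among genes with a mean of 5 CPM (4.62% and 4.93% of all 13941 tested, together 9.55%, or 644 and 687 genes, and 829 and 564 when scaled by library totals). Of the 42 lower genes it called 0 up and 1 down, with 1 and 3 at an unadjusted p under 0.05. At that limit 27 higher genes were up and 5 down, and 1381 and 1627 of the 10797 genes with a mean of 5 CPM. For the lower genes DESeq2 and limma-voom called 0 up as well. The rule picks genes that vary within an arm, and the median SE of the log2 fold change was 0.22 in both groups, against 0.08 for all. With the replicate number as a block, the median SE of the groups was 0.07 and 0.08, against 0.05 for all genes with a mean of 5 CPM. The rule chose replicate patterns shared by the arms, which a block takes out, so the larger fall of SE in the groups follows from the choice. With the block 63 of 112 higher genes were called up and 15 down, against 19.3% and 22.2% of genes with a mean of 5 CPM (17.9% and 18.3% of all tested, together 36.1%). Of the lower genes 7 were called up and 16 down. DESeq2 with the same block called fewer, 1970 of all genes in place of edgeR's 5038, 46 of the higher genes up and 9 down, and 4 of the lower genes up and 9 down. All 9 genes called without the block were also called with it.

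Higher genes lay toward siID4. Their median log2 fold change was 0.25, with 88 of 112 above 0, against −0.01 for all genes with a mean of 5 CPM, of which 5144 of 10797 were above 0. For the lower genes it was −0.06, with 17 of 42 above 0. Without one library the count of higher genes called up was 17, 1 and 3 when NT replicate 1, 2 or 3 was left out, and 0, 0 and 15 when siID4 replicate 1, 2 or 3 was left out. DESeq2 called 19 and limma-voom 12. With the block and without the libraries of 1 number it was 58, 56 and 56 for numbers 1, 2 and 3.

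**Figure D5:**
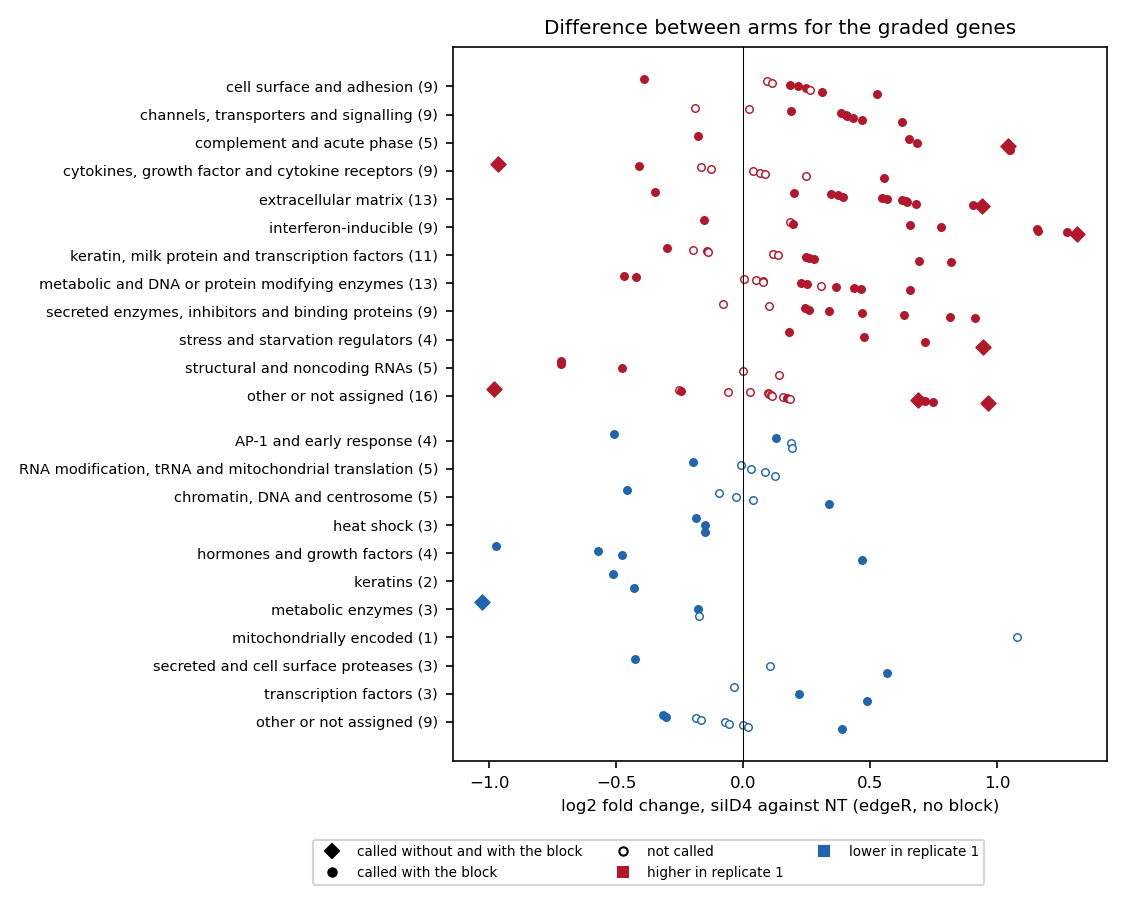
Log2 fold change of siID4 against NT from edgeR without the block (horizontal axis) for the 154 genes by role, red for genes higher and blue for genes lower in replicate 1. Diamonds mark the 9 genes called without and with the block, and filled circles those that edgeR called with the block and not without it. Of the red genes 88 of 112 lie to the right of 0, with most matrix and secreted genes among them.

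The plot of arm differences by role shows where the calls fell. With the block in edgeR, where 19.3% of genes with a mean of 5 CPM were up and 22.2% down, 12 of 13 matrix genes were called up and Dcn down. Of 9 interferon-inducible genes 7 were up and 1, Oasl1, down, and of 9 secreted proteins 7 were up. All 4 stress regulators were up. Of 9 cytokine and receptor genes 1 was up and 2 were down. Of the structural RNAs, Rn18s-rs5, uncertain through its copy, and the pair Rn7s1 and Rn7s2, counted as 1 measurement, were down. Hsph1 and Hspa8, with the Hspa8 copy Gm15459, and both keratins of the lower group were down. The roles were assigned with the values in view, so these counts describe the classes and test nothing about them.

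Among higher genes, those called up with the smallest adjusted p were Pdgfrl, C1s1, Bmf, Bgn and Tmem86a. Pdgfrl, a receptor-like protein without a kinase, was at 25.12, 24.51 and 16.93 CPM in NT and 51.82, 46.08 and 34.14 CPM in siID4. The arms did not overlap. It changed by 0.96 on the log2 scale (SE 0.19, edgeR adjusted p = 0.0194, 7.89e-15 with the block). C1s1 changed by 1.04 (SE 0.22, adjusted p = 0.0204), Bmf by 0.94 (SE 0.21, 0.0251), Bgn by 0.94 (SE 0.22, 0.0338) and Tmem86a, which hydrolyses a class of ether lipids, by 0.69 (SE 0.16, 0.0348). With the block, edgeR's adjusted p for C1s1, Bmf, Bgn and Tmem86a was 2.04e-08, 1.12e-09, 1.22e-09 and 2.47e-12. I830012O16Rik, named after its value was seen, changed by 1.32 (SE 0.30, edgeR adjusted p = 0.0353, 3.45e-10 with the block).

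Tgfbr3 and Evi2a were the higher genes called down. Tgfbr3, the TGF-β co-receptor betaglycan, was at 66.02, 55.80 and 43.54 CPM in NT and 33.19, 29.56 and 23.40 CPM in siID4. Every siID4 library was below every NT library, by −0.97 on the log2 scale (SE 0.17, edgeR adjusted p = 0.0124, 1.25e-15 with the block). Evi2a, a membrane protein gene, was at 12.57, 8.89 and 8.31 CPM in NT and 6.24, 5.16 and 3.97 CPM in siID4. It changed by −0.98 on the log2 scale (SE 0.21, edgeR adjusted p = 0.0201, 6.15e-09 with the block). Called down by edgeR with the block and not without it were Rn7s1 and Rn7s2 (log2 fold change −0.72, adjusted p = 0.0816 without and 5.38e-08 with the block) and N6amt1, a methyltransferase (−0.42, 0.171 and 7.59e-06). DESeq2 without a block also called Rn7s1 and Rn7s2 (adjusted p = 0.00793), as did edgeR without siID4 replicate 1 (0.00745).

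In the lower group Gsta1 was called down (−1.03, SE 0.25, edgeR adjusted p = 0.0384, 9.00e-09 with the block). By edgeR with the block and not without it, Fosl1 (−0.51, adjusted p = 0.0808 without and 1.42e-09 with it), Prl2c2 (−0.97, 0.130 and 1.59e-07), Ankle1 (−0.46, 0.224 and 3.45e-05) and Krt7 (−0.43, 0.247 and 3.00e-12) were called down. Without a block, DESeq2 also called Fosl1 (adjusted p = 0.00834) and Prl2c2 (0.0188), and edgeR called Fosl1 (0.0419), Prl2c2 (0.0180) and Ankle1 (0.0289) without NT replicate 1 and Fosl1 (0.0349) without siID4 replicate 3. Called up by edgeR with the block and not without it were Sox11 (0.49, 0.163 and 2.06e-07), Adam12 (0.57, 0.264 and 2.14e-10), Fam120c (0.39, 0.268 and 1.37e-05), Pdgfb (0.47, 0.345 and 8.23e-04) and Thap2 (0.22, 0.477 and 0.00280). DESeq2 with the block did not call Pdgfb (adjusted p = 0.0769) or Thap2 (0.241), and edgeR without a block called Sox11 when NT replicate 3 was left out (0.0346). Without siID4 replicate 2, none of the 9 genes called without the block passed: edgeR adjusted p was 0.0528 for Tgfbr3, 0.0708 for Pdgfrl, 0.0932 for Evi2a, 0.0976 for C1s1, 0.0976 for Bmf, 0.114 for Tmem86a, 0.109 for I830012O16Rik, 0.126 for Bgn and 0.130 for Gsta1. Without siID4 replicate 1, Pdgfrl, C1s1, Bmf, Bgn, Tmem86a, I830012O16Rik and Gsta1 did not pass, without NT replicate 2 all of these but Pdgfrl, and without NT replicate 3 C1s1, Bgn, Tmem86a and Gsta1. With no filter on low counts Pdgfrl, Tmem86a, Tgfbr3, I830012O16Rik and Gsta1 did not pass.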

How the data were processed

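RNA sequencing counts of 6 libraries, 3 per arm, were analysed. The authors deposited 1 table of expected counts per gene, not normalised, with a gene length column in bases. Per the submitters' processing notes, cutadapt, STAR, RSEM and the build mm10 were used. No version, annotation release or strand setting is given there. The expected counts split ambiguous reads between genes by estimate and were rounded for tests (at most 16.9% of the chosen genes' values in a library were not whole).

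CPM is the count over the library's total of all 25655 genes. siID4 was compared with NT by edgeR 4.0.16 in R 4.3.3 (quasi-likelihood, robust, TMM, filterByExpr, no block), with Benjamini-Hochberg adjustment over the 13941 genes tested and a call under 0.05. The biological coefficient of variation was 7.83%. Same-numbered libraries deviated together from the arm means (correlations 0.42, 0.14 and 0.38 on log2 CPM), so values with the replicate number as a block are given beside the counts of calls and the genes named for their arm difference. DESeq2 1.42.0, limma 3.58.1 (voom), other scalings, filters and left-out libraries were alternatives. edgeR was also run on simulated counts with the same dispersion for every gene. At a log2 fold of 0.58, 73% of changed genes were recovered without the block and 99% with it. False calls numbered 1 and 7. Dispersion did not vary between genes there, so the simulation cannot show how reliable the p-values with the block are in these data.

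Positions and biotypes are from GENCODE M21 on GRCm38 and copies from blastn 2.17.0. The members and gene lists were chosen with earlier results of these data known. Named by rule were, per direction, the 15 members with the largest smaller-of-the-arms ratio, up to 6 members per list, the 3 genes on either side of the limit and 5 up and 5 down between the arms. Predicted models were passed over. Other genes were named, and roles assigned, after their values were seen. A planned search of promoters for transcription factor motifs is not reported. The values of 1 chosen gene are not reported here.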

Additional observations from a re-analysis of the deposited data

How the results depend on the processing

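The count of genes higher in replicate 1 went from 112 to 199 at a limit of 1.3-fold, 34 at 1.6-fold, 7 at 2-fold and 201 with a minimum mean of 1 CPM. The count of lower genes went from 42 to 102, 12, 3 and 70 under the same settings, and to 70 with no condition on replicate 2. A minimum of 10 CPM (85 and 29), TMM (109 and 43) or DESeq2 scaling (109 and 44) and leaving out members whose summed copies miss the rule (110 and 39) stayed within 1.5 times. With the replicate number as a block, edgeR called 5038 genes in place of 1331, 2493 up and 2545 down. DESeq2 with the replicate block called 1970, 850 up and 1120 down. With the replicate block and without replicate number 1, 2 or 3 of both arms the totals were 4572, 3485 and 3284, with 2191, 1644 and 1637 up and 2381, 1841 and 1647 down. Leaving out 1 library at a time gave 445 to 1351 genes, 221 to 686 up and 224 to 665 down. Of the genes higher in replicate 1, 6 were called up and 2 down. The counts were 3 and 1 with no filter, 19 and 4 by DESeq2, 63 and 15 with the replicate block, 46 and 9 by DESeq2 with it, and 0 to 17 and 0 to 4 without 1 library. The count up was 12 with a minimum mean of 5 CPM and 12 by limma-voom. With the replicate block and without number 1, 2 or 3 it was 58, 56 and 56 up and 14, 11 and 14 down. Of the genes lower in replicate 1, 0 were called up and 1 down. The counts were 7 and 16 with the replicate block, 4 and 9 by DESeq2 with it, 7, 6 and 8 up and 15, 15 and 12 down with the block and without number 1, 2 or 3, and 0 to 1 and 0 to 4 without 1 library. The count down was 0 with no filter and 3 by DESeq2. The block fits, the fits of fewer samples and the limits change the design by construction, and the cause of the other changes was not tested. No gene named for its arm difference changed direction. The alternatives with DESeq2 and a block, without a number and without copies were added after seeing the data. Low levels limit the precision: 24.1% of higher and 31.0% of lower genes had a mean under 10 CPM.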
